A study of Mus musculus with 8 samples.

Results

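The genes followed here were 10 of bone morphogenetic protein (BMP) signalling, chosen by name: the ligand genes Bmp2, Bmp4, Bmp5, Bmp6 and Bmp7 and the response genes Msx1, Msx2, Id1, Id2 and Id3. All 10 were among the 24062 genes of the deposited count tables, and all 10 passed the low-count filter that left 15789 genes for testing. PolyA RNA of whole cerebella from individual mouse pups, C57BL/6(mixed), was sequenced on postnatal day 2. The 4 mutant pups were Math1-Cre; Sufu flox/-, and the 4 control littermates were Sufu flox/+ per the series text, where only "control" stands in the sample labels; no source used here says whether they carried the Cre. By the mating described, every pup of either group also received a Math1 mgfp allele from the parent that was mgfp/mgfp. Math1-Cre acts in the lineage of the granule cells, so the tissue mixes recombined and unrecombined cells, and all cells of the mutants carry the null Sufu allele. The comparison asks how mutants and controls differ, and libraries are numbered 1 to 4 within each group in the order of deposition.

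BMPs are secreted dimers that bind pairs of type I and type II receptor kinases. The receptors phosphorylate SMAD1, SMAD5 and SMAD9, which enter the nucleus with SMAD4 and switch on target genes, with the Id and Msx genes among the best known. In the developing cerebellum BMPs from the roof plate help to specify granule cell precursors, and BMP2 and BMP4 oppose the proliferation that Sonic hedgehog drives in those precursors. Sufu restrains the Gli factors of the Hedgehog pathway, so the pair of pathways meets in the cells that the Cre targets.

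The libraries held 21479565 to 26638284 counts in genes. Sufu, the targeted gene, stood at 47.7 to 60.8 CPM (counts scaled to library size with TMM factors) in controls and at 31.7 to 39.8 CPM in mutants, with no overlap. Granule cell precursor markers were present in every library, at a summed level of 1060 to 1284 CPM in controls and 1100 to 2171 CPM in mutants. Oligodendrocyte lineage markers had lower means in mutants in 8 of 9 genes and microglia markers in 9 of 9. Posterior hindbrain Hox genes had lower means in mutants in 11 of 11 genes. Their sum was 117.5 to 205.4 CPM in controls and 169.9, 63.5, 97.15 and 6.47 CPM in mutant 1 to 4. Mutants 2, 3 and 4 were thus below all controls, with mutant 4 far lower than the rest. Over all 15789 genes, edgeR's quasi-likelihood test called 0 at an adjusted p under 0.05 (0%), with 1995 at an unadjusted p under 0.05, while DESeq2 called 40 genes higher and 12 lower in mutants. In whole tissue, fewer cells of a type and less RNA per cell cannot be told apart.

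Bmp5 was the member that differed most: its level was about 2-fold higher in the mutants, and no mutant overlapped a control. Bmp5 encodes a ligand of the same subgroup as BMP6 and BMP7. Control 1 to 4 held 6.23, 8.94, 7.31 and 5.59 CPM, and mutant 1 to 4 held 11.2, 13.45, 12.4 and 19.4 CPM. All 4 mutants were above all 4 controls, and mutant 4 was the highest library. Averaged over 4 libraries each, controls reached 7.02 ± 1.46 and mutants 14.1 ± 3.62 CPM (mean ± SD), which made the fitted log2 fold change 1.01 (SE 0.20). A fitted increase of at least 2-fold was found for 0.31% of all genes. In edgeR's quasi-likelihood test it had an unadjusted p of 0.000458 and an adjusted p of 0.381 over all genes, so it did not pass. DESeq2, run as an alternative, gave it an adjusted p of 0.00303 and called it as the 1 member of 10, against 0.248% of all genes called higher by that tool; it called none of the 10 lower, against 0.0745%. Groups did not overlap, with mutants higher, in 1 of the 10 members and in 3.6% of all genes tested.

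The window around the annotated start of Bmp5 is shown because this gene carries the largest difference of the set, and that of Id2 because it holds the GC-rich palindrome GGCGCC of known BMP-responsive elements. That of Id3 is added because Id3 is described further on as differing between sets of libraries. RefSeq windows (build GRCm38.p6, 250 bases before to 50 after the start) matched 7 of the 10 members. GGCGCC, a palindrome that reads the same on both strands, lies in 11.9% of all 32851 such windows, and the Gli-type motif GACCACCCA, searched on both strands, in 0.253%. The motifs do not overlap each other, and matches are in capitals. In the windows of the 7 members GGCGCC occurred once, in Id2, and GACCACCCA did not occur; these windows say nothing of sites elsewhere.
Bmp5, chr9:75775115-75775414, plus strand: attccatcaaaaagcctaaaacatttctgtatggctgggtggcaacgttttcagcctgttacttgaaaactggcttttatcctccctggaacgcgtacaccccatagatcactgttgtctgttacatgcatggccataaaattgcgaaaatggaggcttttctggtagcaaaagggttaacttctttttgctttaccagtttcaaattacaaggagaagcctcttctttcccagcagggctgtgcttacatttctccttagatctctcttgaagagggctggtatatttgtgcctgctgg
Id2, chr12:25096043-25096342, minus strand: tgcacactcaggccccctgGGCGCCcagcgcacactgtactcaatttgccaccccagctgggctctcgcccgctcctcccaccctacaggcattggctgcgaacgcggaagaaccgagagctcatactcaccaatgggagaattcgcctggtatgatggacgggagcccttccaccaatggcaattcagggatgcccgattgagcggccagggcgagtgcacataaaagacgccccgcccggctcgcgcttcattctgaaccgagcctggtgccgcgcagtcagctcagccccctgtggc
Id3, chr4:136143572-136143871, plus strand: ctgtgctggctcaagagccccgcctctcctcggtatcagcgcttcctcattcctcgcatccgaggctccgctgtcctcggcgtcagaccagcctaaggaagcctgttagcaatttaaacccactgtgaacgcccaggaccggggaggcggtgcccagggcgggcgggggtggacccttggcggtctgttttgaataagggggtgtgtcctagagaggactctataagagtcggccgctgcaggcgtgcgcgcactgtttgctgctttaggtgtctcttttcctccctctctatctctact

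**Figure D1:**
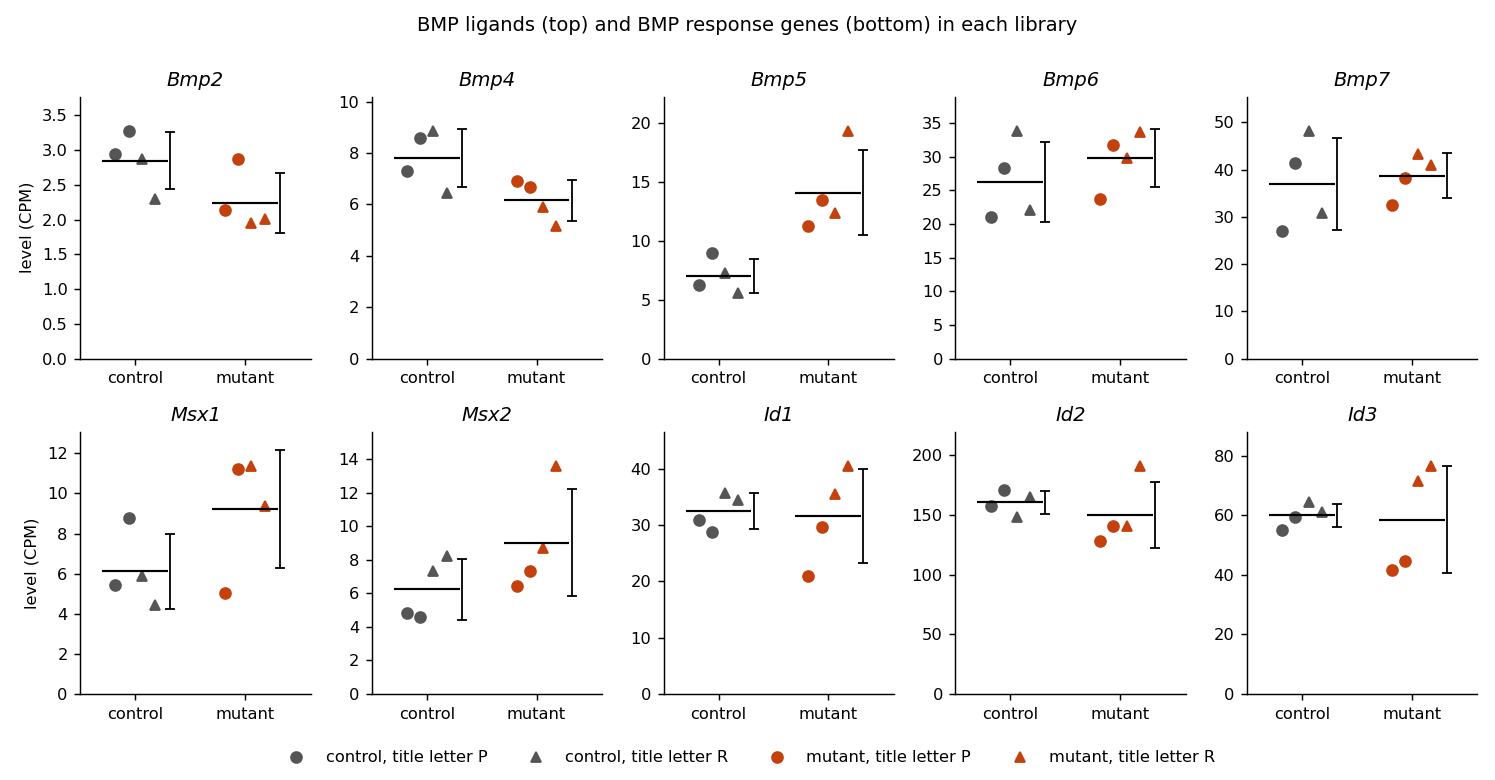
Level of each gene (CPM, linear axis from 0) in the 4 control and 4 mutant libraries; points are libraries, circles and triangles mark title letters P and R, horizontal lines are group means and bars are SDs. Bmp5 has no overlap between groups, from 5.59 to 8.94 CPM in controls and from 11.2 to 19.4 CPM in mutants, and the other 9 genes overlap.

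All exon bins of Bmp5 had higher means in mutants. The authors also deposited counts per exon bin, the pieces into which overlapping exon models are divided, and Bmp5 has 7 bins on chromosome 9, plus strand. All 7 were higher in mutants, with log2 fold changes of 0.85 to 1.06, and in 5 of the 7 no mutant overlapped a control, against 2.49% of all 153897 bins tested. At an unadjusted p under 0.05 and higher in mutants stood 7 of the 7 bins, against 4.46% of all bins, but none passed over all bins (lowest edgeR adjusted p = 0.356), and 0 of all bins passed (0%). Differential bin use within Bmp5 was not called by Simes' method (edgeR adjusted p = 1). The bins come from the same reads as the gene counts and add no independent evidence.

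Beside the Bmp5 values, markers of the choroid plexus, the secretory epithelium attached to the hindbrain roof, were higher in mutants in 10 of 10 genes. Their summed level was 1361 to 3178 CPM in controls and 3452 to 6048 CPM in mutants, and none of the 10 was at 0 in any library. By library the sum was 1361, 3178, 2777 and 2969 CPM in control 1 to 4 and 3452, 6048, 4807 and 4723 CPM in mutant 1 to 4. Control 2 was the highest control and mutant 1 the lowest mutant for both the sum and Bmp5. The lowest control (control 1 for the sum, control 4 for Bmp5) and the highest mutant (mutant 2 for the sum, mutant 4 for Bmp5) differed. Granule cell precursor markers, higher on average in 9 of 9 genes, reached their highest sum (2171 CPM) in mutant 4. The part of either cell type in the Bmp5 difference was not tested. Without mutant 4 the log2 fold change of Bmp5 was 0.81, and each letter that the sample titles carry gave its own value, 0.70 for P and 1.27 for R. What P and R stand for is not stated, and each is shared by 2 control and 2 mutant libraries. Reads without a unique alignment made up 15.15 to 15.96% of all entries in P libraries and 11.74 to 12.22% in R libraries.

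Bmp2 and Bmp4, the pair of closely related ligands that oppose precursor proliferation, had lower means in mutants. For Bmp4 the controls held 7.32, 8.59, 8.87 and 6.43 CPM and the mutants 6.91, 6.66, 5.88 and 5.17 CPM. The 3 highest libraries were controls, but control 4 lay below mutants 1 and 2, so the groups overlapped. The log2 fold change of Bmp4 was -0.34 (SE 0.16; edgeR adjusted p = 0.396), with -0.23 within title letter P and -0.50 within R. Bmp2 was the least covered of the 10 genes, at 44 to 84 counts per library, where counting error alone comes to 15.1% in the lowest one. Controls held 2.94, 3.28, 2.88 and 2.30 CPM of Bmp2 and mutants 2.14, 2.88, 1.94 and 2.01 CPM. Mutants 1, 3 and 4 were below all controls, and mutant 2 lay among them. Its log2 fold change was -0.35 (SE 0.19; edgeR adjusted p = 0.440). Every tested bin of both genes was lower in mutants, 4 of 4 for Bmp4 and 2 of 2 for Bmp2, and none passed over all bins.

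Bmp6 and Bmp7, ligands made by the roof plate and the coverings of the brain among other sites, did not differ beyond the spread between libraries. Bmp7 stood at 27.1, 41.5, 48.2 and 30.9 CPM in controls and 32.4, 38.2, 43.3 and 41.0 CPM in mutants. Its controls spread over a wider range than its mutants and enclosed all of them. The log2 fold change was 0.07 (SE 0.18; edgeR adjusted p = 0.876). For Bmp6 the controls held 21.1, 28.3, 33.9 and 22.0 CPM and the mutants 23.8, 31.8, 29.9 and 33.7 CPM, also with all mutants inside the control range. The log2 fold change was 0.18 (SE 0.17; edgeR adjusted p = 0.632). Both genes were low in controls 1 and 4 and in mutant 1.

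The sum of 10 meningeal fibroblast markers was low in the same 3 libraries, at 858.9 CPM in control 1, 816.8 CPM in control 4 and 907.1 CPM in mutant 1, against 1078 to 1452 CPM in the other 5. None of these markers was at 0. Of the 10, 3 had higher and 7 lower means in mutants, so this list did not move in 1 direction with genotype. Whether the meninges account for the spread of Bmp6 and Bmp7 was not tested.

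**Figure D2:**
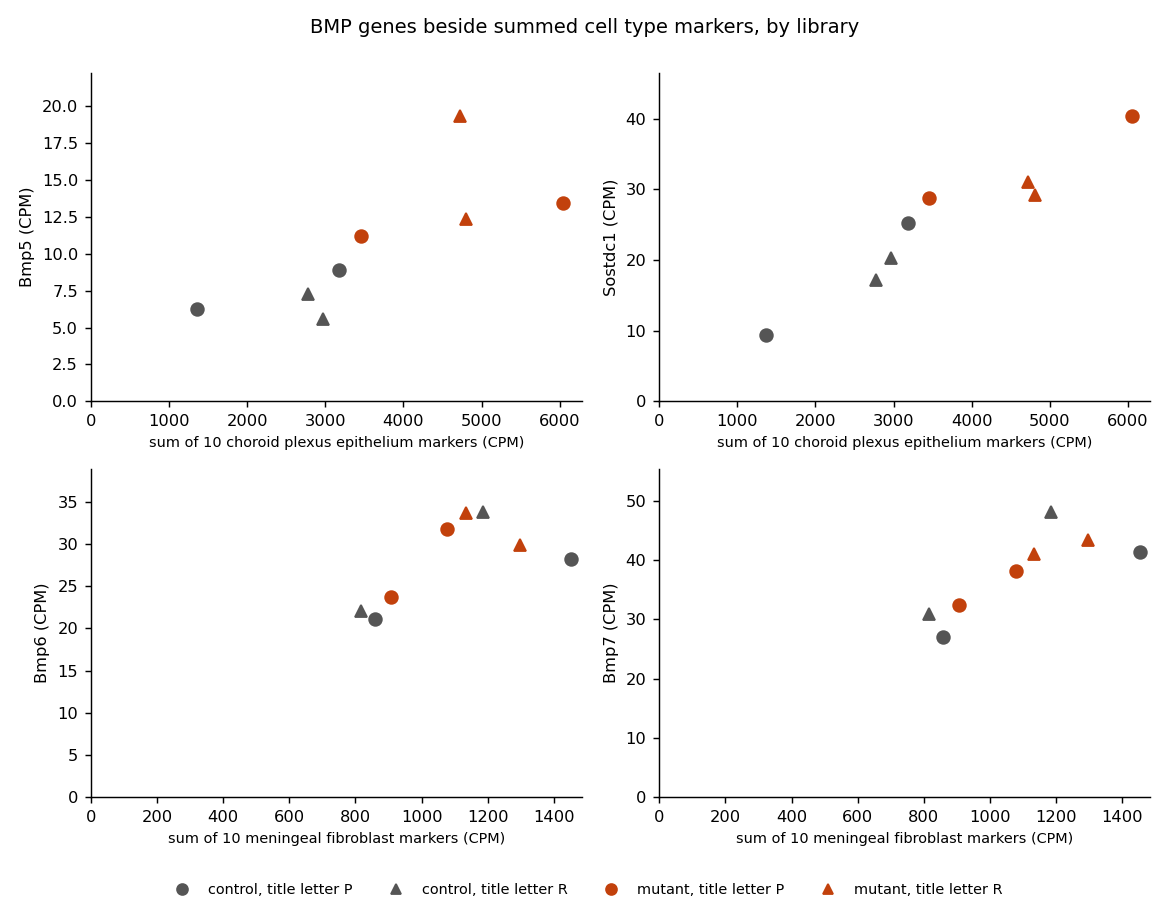
Bmp5 and Sostdc1 (CPM) against the sum of 10 choroid plexus markers, and Bmp6 and Bmp7 (CPM) against the sum of 10 meningeal markers, 1 point per library, all axes from 0. The choroid plexus sum separates the groups (1361 to 3178 CPM against 3452 to 6048 CPM), whereas the meningeal sum does not.

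Within the counts of the 5 ligands, the share taken by Bmp5 was 8.76 ± 1.23% (SD, n = 4) in controls and 15.4 ± 2.57% (SD, n = 4) in mutants. The share of Bmp4 was 9.78 ± 1.08% in controls and 6.90 ± 1.66% in mutants, and that of Bmp2 was 3.61 ± 0.71% and 2.49 ± 0.55% (SD, n = 4). Bmp6 had nearly the same share, 32.5 ± 0.95% and 32.6 ± 1.38%, and Bmp7 had 45.3 ± 2.46% and 42.6 ± 2.65% (SD, n = 4). Shares must sum to the whole, so a higher share of 1 ligand lowers the others.

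Levels of different genes were set against each other per kilobase of exon, with lengths from GENCODE M21, since no source used here names the gene models used for counting. On this scale the ligand with the highest control level was Bmp7 at 10.1 ± 2.64 CPM per kb, followed by Bmp6 at 7.32 ± 1.66 and Bmp4 at 3.78 ± 0.55 CPM per kb (SD, n = 4). Bmp5 followed at 1.84 ± 0.38 and Bmp2 at 0.80 ± 0.11 CPM per kb (SD, n = 4). The mean of Bmp7 lay above that of Bmp6 by only slightly more than the larger SD, while Bmp5 lay below Bmp4 by more than the SD of either. In mutants Bmp5 stood at 3.69 ± 0.95 and Bmp4 at 2.98 ± 0.38 CPM per kb (SD, n = 4), so that their order turned but the values lay within their spread. The Id genes had the highest control levels of the 10, with Id2 at 65.8 ± 4.05, Id3 at 47.0 ± 3.05 and Id1 at 28.0 ± 2.75 CPM per kb (SD, n = 4). Msx1 at 3.17 ± 0.97 and Msx2 at 2.54 ± 0.74 CPM per kb (SD, n = 4) lay near Bmp4 and did not differ from each other beyond their spread.

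Among the response genes, none passed the test. Msx1 and Msx2, homeobox repressors switched on by BMPs in the roof plate and elsewhere, had higher means in mutants, and Id1, Id2 and Id3, inhibitors of basic helix-loop-helix factors, had means close to those of controls. Of the 10 members, 5 had higher and 5 lower means in mutants, against 52.3% of all genes with a higher mean. The median log2 fold change of the 10 was 0.02, and that of all genes tested was 0.01. Over all genes, 0 of the 10 passed in edgeR, and 1, Bmp5, had an unadjusted p under 0.05, where 12.6% of all genes did.

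Msx1 stood at 5.42, 8.78, 5.89 and 4.41 CPM in controls and at 5.03, 11.2, 11.4 and 9.37 CPM in mutants. Mutants 2, 3 and 4 were above all controls, and mutant 1 was below 3 of them. The log2 fold change was 0.59 (SE 0.27; edgeR adjusted p = 0.398), at 0.19 within P and 0.98 within R, and 0.46 to 0.80 when 1 library was left out. Msx2 stood at 4.84, 4.57, 7.31 and 8.22 CPM in controls and at 6.43, 7.30, 8.71 and 13.6 CPM in mutants. The groups overlapped, and the R libraries of each group were above its P libraries. Within P and within R both mutants were above both controls, a pattern whose share over all genes was not counted. Msx2 had a log2 fold change of 0.54 (SE 0.27; edgeR adjusted p = 0.410), at 0.54 within P and 0.49 within R. With the letter as a block the SE was 0.15 and the adjusted p was 0.219. Without mutant 4 the log2 fold change of Msx2 was 0.26.

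The genotype effect on Id3 differed between the title letters. Within P, controls 1 and 2 held 55.1 and 59.4 CPM and mutants 1 and 2 held 41.6 and 44.6 CPM. Within R, controls 3 and 4 held 64.5 and 61.1 CPM and mutants 3 and 4 held 71.5 and 76.5 CPM. Both mutants were thus below both controls in P and above both in R. The log2 fold change was -0.41 in P and 0.21 in R, and the difference of 0.65 (SE 0.13) passed over all genes in edgeR's test of the genotype by letter interaction (adjusted p = 0.0421). That interaction was called for 3.2% of all genes tested. Pooling both letters, Id3 averaged 60.03 ± 3.9 CPM over the 4 controls and 58.55 ± 18.01 CPM over the 4 mutants (mean ± SD), for a log2 fold change of -0.04 (SE 0.19; edgeR adjusted p = 0.947).

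Id1 and Id2 had the same signs as Id3 in each letter, but their interactions did not pass. Id1 stood at 30.9, 28.8, 35.7 and 34.4 CPM in controls and at 20.9, 29.6, 35.5 and 40.4 CPM in mutants, with the lowest and the highest library both mutants. Its log2 fold change was -0.25 in P and 0.09 in R (difference 0.35, SE 0.22; edgeR adjusted p = 0.374). Id2 stood at 157.8, 170.7, 148.0 and 165.3 CPM in controls and at 127.8, 140.8, 140.5 and 190.8 CPM in mutants. Mutants 1, 2 and 3 were below all controls and mutant 4 was above all of them. Its log2 fold change was -0.30 in P and 0.05 in R (difference 0.37, SE 0.20; edgeR adjusted p = 0.306). Over all 8 libraries the log2 fold changes were -0.04 (SE 0.18) for Id1 and -0.10 (SE 0.13) for Id2. All 3 Id genes were lowest in mutant 1 and highest in mutant 4.

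Id1 and Id3 are abundant in blood vessels, and the sum of 11 endothelial and pericyte markers was 307.5 to 387.5 CPM in controls, 338.3 CPM in mutant 1 and 477.3 to 493.9 CPM in mutants 2 to 4. All 11 had higher means in mutants and none was at 0. The controls stood in the same order for this sum (307.5, 363.2, 387.5 and 379.2 CPM) and for Id3, lowest in control 1 and highest in control 3. For Id1 the order differed, with control 2 the lowest (28.8 CPM). Among mutants, the sum, Id1 and Id3 were lowest in mutant 1 (338.3 CPM of the markers) and highest in mutant 4 (493.9 CPM). Mutant 2 (484.2 CPM) and mutant 3 (477.3 CPM) stood in the opposite order for Id1 and Id3. Mutant 2 was above every control for the sum but below every control for Id3 (44.6 CPM). The part of vessel cells in the Id values was not tested.

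**Figure D3:**
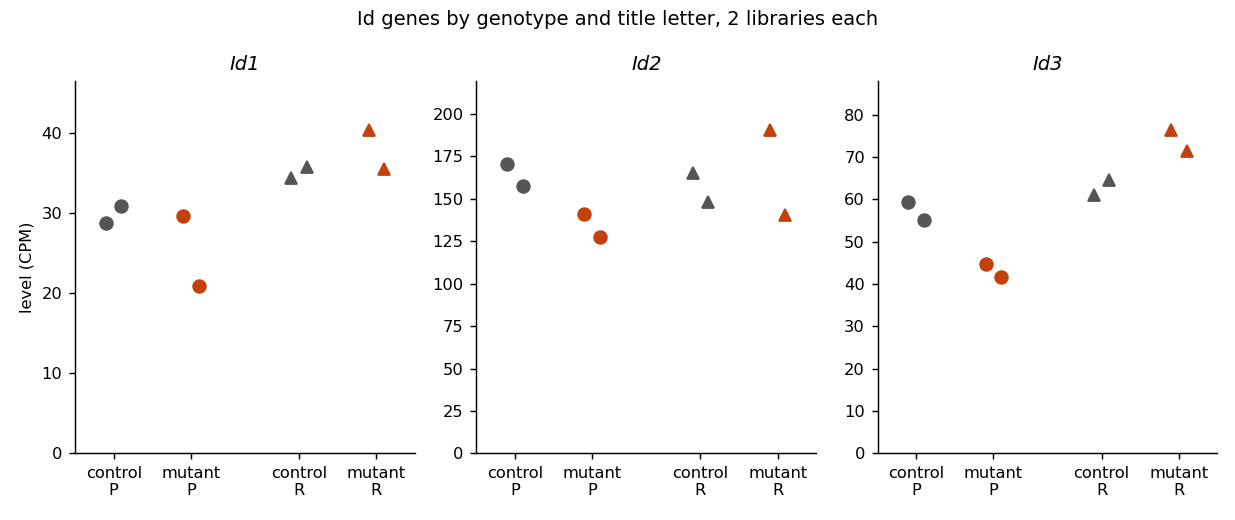
Levels of Id1, Id2 and Id3 (CPM, linear axis from 0) by genotype and title letter, with 1 point for each of the 2 libraries in a set. For Id3 both mutants lie below both controls in P (41.6 and 44.6 against 55.1 and 59.4 CPM) and above both in R (71.5 and 76.5 against 64.5 and 61.1 CPM).

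Bins of the other members lay near their gene-level values. Of the 40 bins of the 10 genes, 38 were tested. All 7 bins of Bmp6 were higher in mutants, by log2 fold changes of 0.09 to 0.35, and the 7 of Bmp7 lay between -0.03 and 0.07. The 2 bins of Msx2 stood at 0.49 each, and the 1 tested bin of Msx1 at 0.50. The 8 bins of the Id genes lay between -0.13 and 0.02. No member passed for a change in bin use (edgeR's Simes adjusted p = 1 for the 9 members with several tested bins), where 0.00749% of all 13351 genes did.

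**Figure D4:**
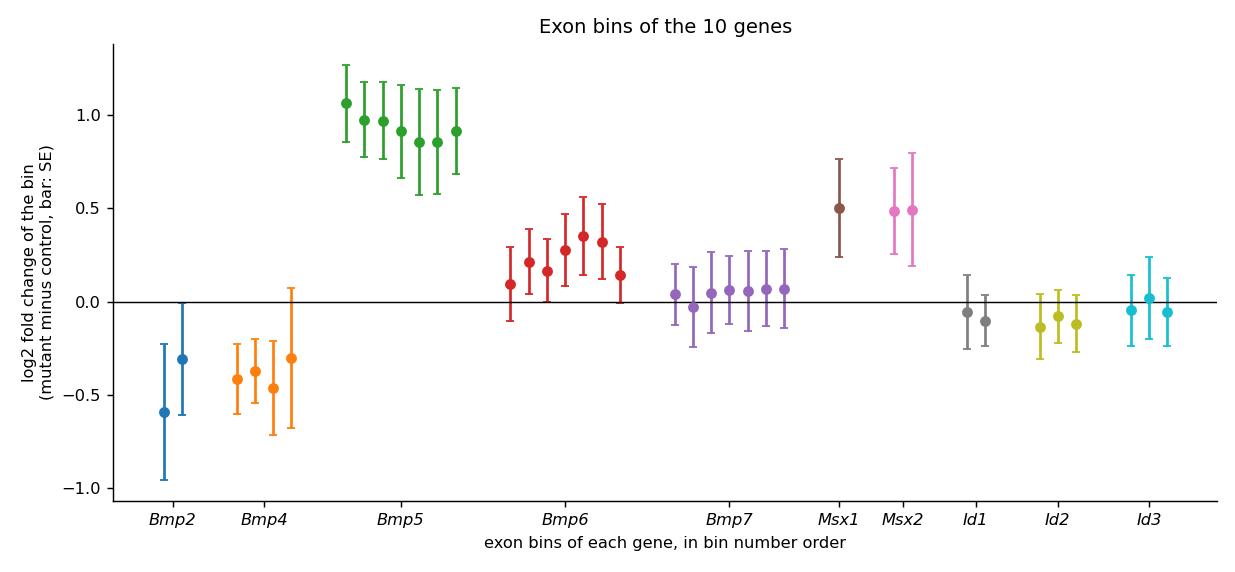
Log2 fold change (mutant minus control) of each tested exon bin of the 10 genes, with bars of 1 standard error; bins are in number order within each gene. The 7 Bmp5 bins lie at 0.85 to 1.06 and the bins of Bmp7 and the Id genes lie near 0.

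Other BMP-type ligands held 1 more gene without overlap out of 5 tested, where all mutants were higher in 3.6% of all genes. Gdf7, a ligand of the roof plate, stood at 0.46, 0.62, 0.96 and 0.89 CPM in controls and at 1.09, 2.06, 1.33 and 1.30 CPM in mutants. Every mutant was above every control, at 12 to 48 counts per library. The log2 fold change was 0.99 (SE 0.30; edgeR adjusted p = 0.381; DESeq2 adjusted p = 0.213), at 1.52 within P and 0.47 within R. Lmx1a, a transcription factor of the roof plate, was 9.20 to 15.9 CPM in controls and 13.9 to 21.9 CPM in mutants, with overlap, and Wnt1 and Wnt3a of the same list had at most 17 counts in a library. Bmp3, an atypical ligand, was 3.29 ± 0.20 CPM in controls and 2.16 ± 1.12 CPM in mutants (SD, n = 4), and Gdf10, an atypical ligand of Bergmann glia, was 116.1 ± 43.7 and 154.2 ± 48.3 CPM (SD, n = 4). Of the 10 genes of this list, 5 passed the low-count filter and 0 passed the test. Bmp10 had a single count in all 8 libraries together, and Bmp8a and Bmp8b are near-identical copies whose reads are uncertain.

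No receptor or signal transducer gene passed the test. Of 11 receptor and co-receptor genes, 7 had higher and 4 lower means, 0 passed, and the median log2 fold change was 0.05. The smallest p values were those of Acvrl1, a type I receptor of vessel cells, at 11.1 ± 1.53 and 14.0 ± 2.73 CPM, Eng, its co-receptor, at 39.3 ± 7.76 and 45.7 ± 10.49 CPM, and Rgmb, a BMP co-receptor, at 74.7 ± 4.84 and 68.4 ± 10.04 CPM in controls and mutants (SD, n = 4). Eng and Acvrl1 are themselves expressed in the vessel cells whose markers are given above. Among the 4 SMAD genes Smad5 was 122.6 ± 10.8 and 144.1 ± 17.2 CPM, and Smad4 was 66.6 ± 5.01 and 78.6 ± 11.7 CPM (SD, n = 4). Smad9 had a lower mean, at 13.3 ± 0.87 and 10.2 ± 2.75 CPM (SD, n = 4), with a log2 fold change of -0.39 (SE 0.18), and Smad1 had a log2 fold change of 0.01. None of the 4 passed (lowest edgeR adjusted p = 0.397).

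Secreted antagonists and modulators held the largest differences of the pathway outside the ligands, in both directions. Sostdc1, a secreted antagonist, stood at 9.33, 25.2, 17.2 and 20.3 CPM in controls and at 28.7, 40.4, 29.2 and 31.1 CPM in mutants. Every mutant was above every control, as for 3.6% of all genes. The log2 fold change of Sostdc1 was 0.85 (SE 0.25, edgeR adjusted p = 0.381, DESeq2 adjusted p = 0.103). Within each group its libraries stood in the order of the choroid plexus sum, except that mutants 3 and 4 changed places, and the part of that tissue was not tested. Nog, which encodes the antagonist Noggin, stood at 8.60, 7.53, 9.23 and 10.1 CPM in controls and at 7.22, 6.79, 6.90 and 5.50 CPM in mutants. Every mutant was below every control, as for 2.96% of all genes, with a log2 fold change of -0.43 (SE 0.15; edgeR adjusted p = 0.381; DESeq2 adjusted p = 0.210), at -0.21 within P and -0.67 within R.

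Of the 14 tested genes of this list, 6 had higher and 8 lower means, 0 passed, and the median log2 fold change was -0.12. At an unadjusted p under 0.05, 3 were higher and 3 lower, where 6.94% of all genes were higher and 5.7% lower. The others were Chrd and Chrdl2 (log2 fold changes of 0.43 and 0.61) and Bmper and Crim1 (-0.50 and -0.44). Sostdc1, Nog and Bmper were named for having the 3 smallest edgeR p of the list. Chrd, Chrdl2 and Crim1 were added after their values were seen, so all of these genes were picked by value. Without mutant 4 the log2 fold change was 0.21 for Chrd and -0.26 for Crim1. Within P and R it was 0.06 and 0.69 for Chrd, -0.14 and -0.86 for Crim1, and -0.29 and -0.81 for Bmper. Chrd, which encodes the antagonist Chordin, was 30.8 to 33.4 CPM in controls and 29.9, 36.9, 44.6 and 60.9 CPM in mutants. Crim1, a membrane protein that binds BMPs, was 63.2 to 66.8 CPM in controls and 63.8, 56.8, 43.6 and 29.3 CPM in mutants. Bmper, a secreted BMP-binding protein, was 13.2 to 15.1 CPM in controls and 13.4, 11.2, 9.37 and 6.65 CPM in mutants. Mutant 1 lay nearest the controls and mutant 4 farthest from them for all 3 of these genes, and mutant 4 was also the library with a Hox sum of 6.47 CPM. The part of adjacent hindbrain tissue in these values was not tested.

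No feedback inhibitor or other response gene passed the test. Of 6 genes, 5 had higher and 1 a lower mean, of which Smad6 and Smad7 turned lower under RLE scaling, 0 passed, and the median log2 fold change was 0.04. Smad6 and Smad7, inhibitory SMADs induced by BMP signalling, had log2 fold changes of 0.01 (SE 0.23) and 0.01 (SE 0.13). Id4 was 64.2 ± 1.93 CPM in controls and 62.7 ± 3.43 CPM in mutants, Atoh8 was 3.77 ± 0.57 and 4.50 ± 0.76 CPM, and Msx3 was 1.41 ± 0.42 and 1.64 ± 0.53 CPM (SD, n = 4). A p that misses the threshold does not show that these genes were equal in both groups. Across all 5 pathway lists beyond the members, 40 of 47 genes were tested and 0 passed in edgeR or in DESeq2. At an unadjusted edgeR p under 0.05, 4 of the 40 were higher and 3 lower. Over all genes tested, 6.94% were higher and 5.7% lower at that threshold.

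**Figure D5:**
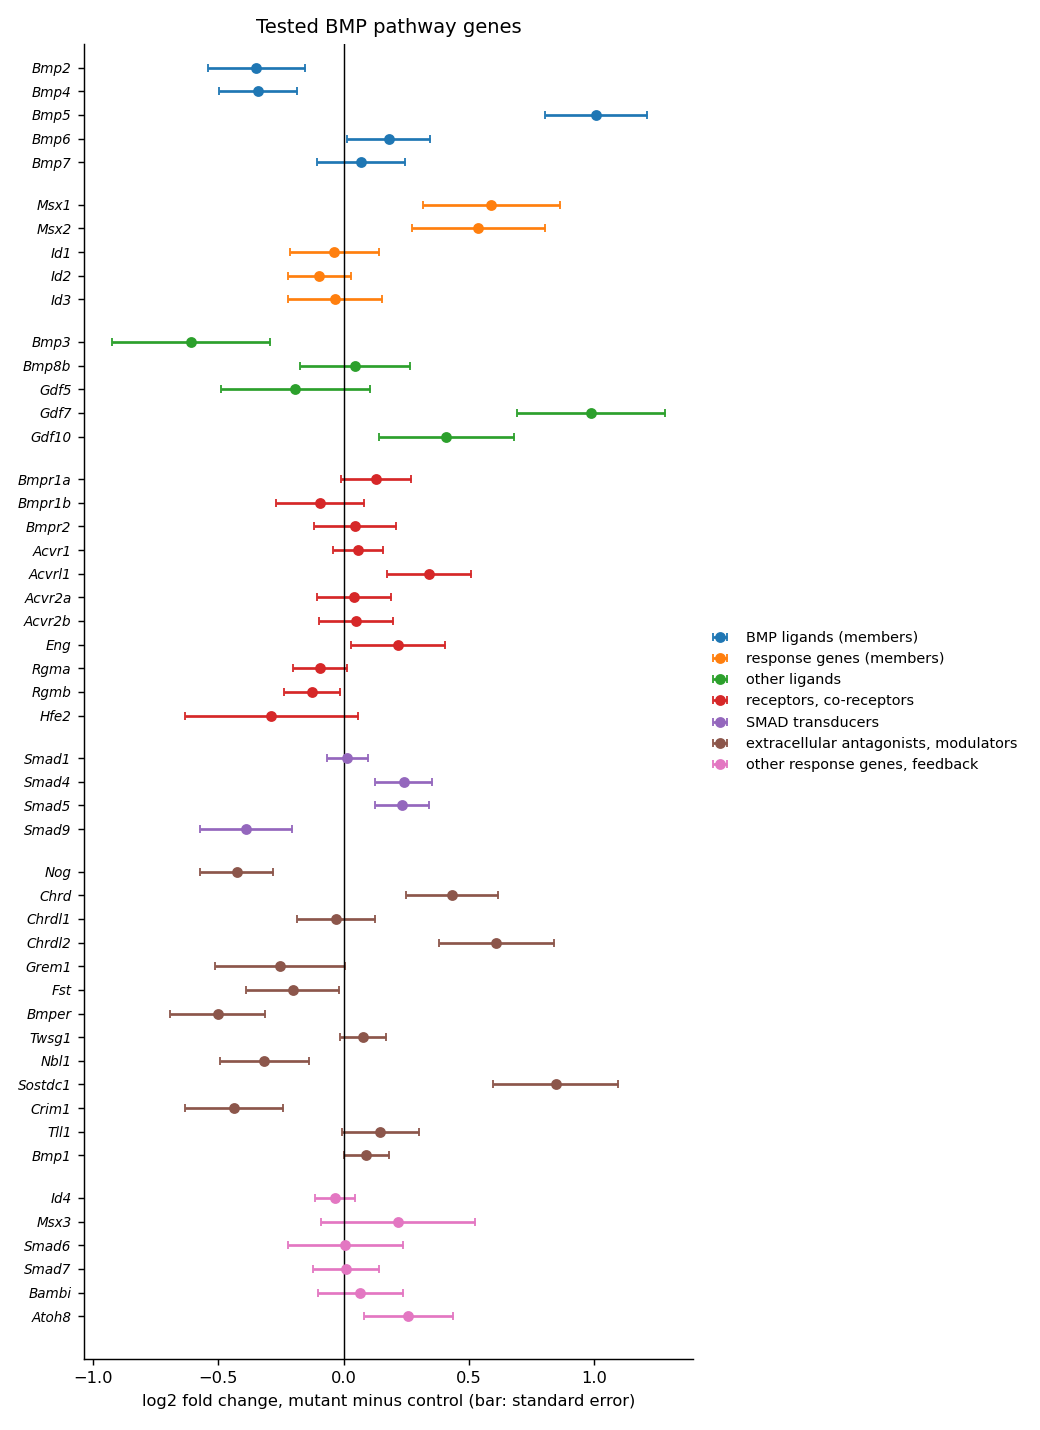
Log2 fold change (mutant minus control) with bars of 1 standard error for the 10 members and tested genes of the other BMP pathway lists, coloured by role. Bmp5 (1.01), Gdf7 (0.99) and Sostdc1 (0.85) lie farthest to the right, and Bmp3 (-0.61) and Bmper (-0.50) farthest to the left of those plotted.

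Genes with the library profile closest to a member were ranked by the mean absolute difference of centred log2 CPM over the 8 libraries, among genes with a mean of at least 5 CPM. For Bmp5 these were Itga8, an integrin subunit (0.14), Plagl1, a zinc finger factor (0.16), and Adamts1, a matrix protease (0.16). Itga8 was 14.1 ± 2.71 CPM in controls and 25.0 ± 4.23 CPM in mutants, and Plagl1 was 101.8 ± 11.1 and 164.4 ± 12.1 CPM (SD, n = 4). For Bmp4 the closest was Wnt4, a secreted WNT ligand (0.06), at 8.77 ± 1.31 and 7.03 ± 0.63 CPM (SD, n = 4). For Bmp6 and Bmp7 they were Bicc1 (0.06) and Rcsd1 (0.06), followed by Tgfbr2, a TGF-beta receptor, for Bmp6 and Mxra8, a matrix-associated membrane protein, for Bmp7. Msx2 lay closest to Islr2 (0.08), and Msx1 to Col3a1, a fibrillar collagen (0.20). Id3 lay closest to Sac3d1 (0.05), at 18.14 ± 1.40 CPM in controls and 17.75 ± 5.11 CPM in mutants (SD, n = 4), which like Id3 spread more widely in mutants. The closest gene was 2310036O22Rik for Id1 (0.06), Coil for Id2 (0.08) and F3 for Bmp2 (0.06). All these values rest on the same 8 libraries and describe them only.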

How the data were processed

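PolyA libraries (Illumina TruSeq) were made from TRIzol-extracted RNA of 8 single cerebella, per the labels' protocols. The authors deposited raw counts per gene and per exon bin. TopHat, HTSeq, DESeq2 and build mm9 stand without versions in the submitters' processing notes. No source used here gives the annotation or says whether counting used strand, so a gene cannot be separated from an antisense or overlapping neighbour. Summary lines, 5 per gene table (24.8 to 34.3% of entries) and 4 per bin table, were removed.

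The gene test was edgeR 4.0.16 under R 4.3.3: filterByExpr, TMM factors of 0.986 to 1.01, a two-sided quasi-likelihood F test with genotype as the only term, and Benjamini-Hochberg adjustment over all genes. Bin use was tested with diffSpliceDGE. Alternatives were DESeq2 1.42.0, RLE scaling, no filter, the title letter as a block, fits within each letter, and leaving out each library. No 2 libraries of a group were near-copies (chi-square per degree of freedom 7.42 to 81.0). In simulated counts for mutant against control (15690 genes), edgeR recovered 84% of 50 genes altered 2-fold and 36% of 50 altered 1.5-fold. Those counts were drawn without differences between title letters or in tissue make-up, so they do not give the recovery in these libraries. In the real counts, 49 genes had a fitted increase of at least 2-fold and edgeR called 0 genes.

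Members, gene lists and tests were chosen with earlier results of these data known. The rule named all members, Sufu, the 3 genes of smallest p in each pathway list, the 2 most abundant markers of each marker list and the 3 genes closest in profile to each member; not all of these are printed. The counts over a pathway list include 1 gene that is not reported here and is left out of the plot.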

Additional observations from a re-analysis of the deposited data

Results flagged for a closer look

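Id3 was singled out because its genotype effect differed between the title letters by a test of the difference itself: the log2 fold change was higher by 0.65 in R than in P (edgeR adjusted p = 0.0421). Among 51 genes checked in both groups, 3 of 102 groups held a library far from the other 3, where chance gives about 1 in 20. Eng was 29.96 CPM in mutant 1 and 50.1 to 51.5 CPM in the other mutants. Smad4 was 96.1 CPM in mutant 4 and 71.6 to 74.5 CPM in the other mutants. Bmp1, which encodes a protease that cleaves Chordin, was 83.6 CPM in control 1 and 75.3 to 76.2 CPM in the other controls. None of these 3 was among the 10 members.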

How the results depend on the processing

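In place of the 0 genes called by edgeR, DESeq2 called 52 genes, of which 1 was a member (Bmp5), and edgeR called 5 genes within title letter P and 1 within R; leaving out 1 library gave 0 to 1 genes, the 1 gene without mutant 1. No member was called in any of those edgeR fits, and 0 genes of the pathway lists were called under any alternative. Bmp5 was higher in mutants under every alternative, with a log2 fold change of 0.81 to 1.13 when 1 library was left out and an adjusted p of 0.00303 (DESeq2) to 0.649. Among genes printed with values, signs turned within R for Id1 (0.0858), Id2 (0.0511), Id3 (0.209) and Smad1 (-0.0645), and within P for Rgmb (0.0818), Id4 (0.0334), Msx3 (-0.231), Bmp1 (-0.0614), Smad6 (-0.117) and Smad7 (-0.0561); the cause was not tested. Smad6 and Smad7 also turned under RLE scaling (-0.00671 and -0.00437) and DESeq2 (-0.00532 and -0.00236), and Smad6 with the letter as a block (-0.00805). With 1 library left out, Bmp7 ranged from -0.0534 to 0.225, Id1 from -0.18 to 0.11, Id3 from -0.20 to 0.0893, Smad1 from -0.0224 to 0.0447, Smad6 from -0.171 to 0.181 and Smad7 from -0.0515 to 0.0788. Sufu was also called by DESeq2 (-0.60). RLE scaling, no filter and the title letter as a block turned no member's sign and added no call. No change of bin use was called in a member under any bin alternative. No paired analysis was possible because the replicate numbers follow the order of deposition and pair no pups. Counting error in the library with the fewest counts came to 15.1% for Bmp2 and to 1.85 to 10.3% for the other members.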
